A study of Mus musculus with 2 samples.

Results

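Complement is a cascade of plasma and tissue proteins that marks microbes, immune complexes and damaged cells. The transcripts of 9 of its genes were examined in mouse skin: the C1q chain genes C1qa, C1qb and C1qc, the C1 protease gene C1ra, the central component gene C3, the alternative pathway gene Cfb, the anaphylatoxin receptor genes C3ar1 and C5ar1, and the inhibitor gene Serping1. The genes were found by their symbol in the platform annotation. It held 8 of the 9, with 1 probe each, among 22180 genes in all. C3 was not analysed here, so Cfb alone stands for the C3 and alternative pathway group.

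Dorsal skin was taken from female mice of NC/Nga, a strain that readily develops dermatitis. Both groups had dermatitis induced by an ointment of Dermatophagoides farinae (house dust mite) extract applied 2 times a week for 6 weeks, started at 6 weeks of age and are labelled as 13 weeks old. The ZAG group also received recombinant ZAG, zinc-alpha-2-glycoprotein, topically 2 times a week for 6 weeks at 1 µg/mL, and the control group did not. The design text names 3 mice per group, but the values comprise 1 array per group, and the sources used here do not say whether an array holds 1 mouse or a pool. No group without dermatitis was analysed here.

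The classical pathway starts when C1q, a bundle of A, B and C chains, binds antibody complexes and activates the proteases C1r and C1s. The alternative pathway amplifies C3 cleavage through factor B. The fragments C3a and C5a attract and activate myeloid cells through their receptors, and C1 inhibitor, the product of Serping1, blocks C1r, C1s and the proteases of the lectin pathway. In skin, C1q is made mainly by macrophages and related myeloid cells, whereas fibroblasts and keratinocytes make several of the other components.

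Regulatory sequence upstream of the members is shown because all 8 had lower values with ZAG. The RefSeq promoter table (GRCm38.p6) held 5 of the 8 measured members, namely C1qb, C1qc, C1ra, C3ar1 and C5ar1. The 250 bases before each start were searched on both strands. Capitals mark AGGAAGT, the core bound by ETS factors such as PU.1, or an NF-kB-like motif of GGG and CC with any 5 bases between. Either may appear as its reverse complement. The C1qb and C1qc windows lie on chromosome 4 at chr4:136886201-136886450 and chr4:136892937-136893164, both on the minus strand, in the 5′ flank of adjacent genes. The C1ra window is chr6:124512371-124512620 on the plus strand and the C3ar1 window chr6:122856158-122856407 on the minus strand. The C1qc window is shown without 22 bases that lie inside the annotated gene. The C5ar1 window has 202 of its 250 bases inside the annotated gene and is not shown.
C1qb: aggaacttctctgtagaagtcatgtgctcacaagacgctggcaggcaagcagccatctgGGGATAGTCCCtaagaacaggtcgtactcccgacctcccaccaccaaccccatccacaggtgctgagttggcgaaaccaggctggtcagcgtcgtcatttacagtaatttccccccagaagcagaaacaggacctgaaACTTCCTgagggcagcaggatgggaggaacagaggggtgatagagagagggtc
C1qc: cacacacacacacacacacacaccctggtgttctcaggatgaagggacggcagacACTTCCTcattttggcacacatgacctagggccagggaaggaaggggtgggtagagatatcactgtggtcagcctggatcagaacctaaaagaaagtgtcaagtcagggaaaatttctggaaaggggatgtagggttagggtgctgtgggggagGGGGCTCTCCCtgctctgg
C3ar1: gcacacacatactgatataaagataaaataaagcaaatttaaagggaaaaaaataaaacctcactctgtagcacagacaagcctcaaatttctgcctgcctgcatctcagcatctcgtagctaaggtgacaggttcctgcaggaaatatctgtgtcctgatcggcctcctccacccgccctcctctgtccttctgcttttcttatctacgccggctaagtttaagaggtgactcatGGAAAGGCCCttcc
C1ra: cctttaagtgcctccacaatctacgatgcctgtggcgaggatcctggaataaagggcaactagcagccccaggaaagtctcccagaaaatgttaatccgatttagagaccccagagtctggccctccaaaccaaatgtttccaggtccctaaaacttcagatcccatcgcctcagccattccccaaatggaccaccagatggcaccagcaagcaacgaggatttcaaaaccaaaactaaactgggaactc

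AGGAAGT was present in the windows of C1qb, C1qc and C5ar1, that is 3 of 5, against 7.69% of 32851 windows of the same length. Both C5ar1 matches lie in the bases inside the annotated gene, so outside annotated genes 2 of the 5 members held it. This motif was chosen after the sequences had been read, so the count is a description only. The NF-kB-like motif was present upstream of C1qb, C1qc and C3ar1 and in 45.8% of all windows. In C1qb and C1qc its matches on the 2 strands overlap. The C/EBP-like motif TTNNGNAA was found in the windows of C1qc, C1ra and C5ar1, in the last again only inside the annotated gene, and in 36.8% of all windows, and the STAT motif TTCNNNGAA in none of the 5 and in 7.02% of all windows.

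All 8 measured complement genes were lower on the ZAG array than on the control array. Their log2 differences, ZAG minus control, lay between -0.73 (C3ar1) and -0.27 (C1qc), with a median of -0.58. The median over all 11090 genes at or above the median level was 0.02, and 47.6% of those genes were lower and 52.3% higher by any amount. None of the 8 members was at least 2-fold lower, a size reached by 128 of the 11090 genes (1.15%), and none was at least 2-fold higher (0.271% of genes). At 1.5-fold, 3 of 8 members were lower (C1qa, C1qb and C3ar1), against 5.08% of genes, while Cfb and C1ra lay just short of that size and 0 members were higher, against 2.48% of genes. The members were chosen with earlier results of these data known, so their counts beside these shares are a description only. Each group has 1 array, so no difference was tested or has a replicate error. Fewer cells of a type and less RNA per cell cannot be told apart in whole skin.

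**Figure D1:**
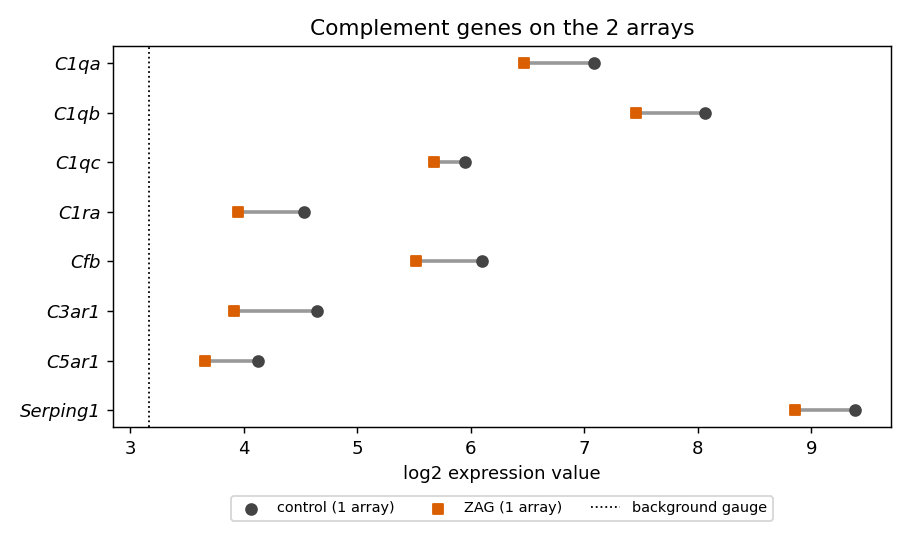
Log2 expression of the 8 measured complement genes (x axis, log2 units) on the control array (circles) and the ZAG array (squares), 1 array each; the dotted line is the background gauge of 3.16. Every square lies to the left of its circle, and the shortest line is that of C1qc.

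The only available gauge of error is technical. Among 591 genes with more than 1 probe at or above the median level, probes of the same gene differed in their log2 difference with an SD of 0.244. All 8 members were lower by more than this SD, as were 20.1% of the 11090 genes, and 6 by more than 2 times it, as were 7.52% of those genes. This SD says nothing of the spread between mice.

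The C1q chain genes head the classical pathway. C1qa, the A chain gene (probe 17431619), had a log2 level of 7.08 on the control array and 6.47 on the ZAG array. C1qb, the B chain gene (probe 17431607), stood at 8.07 and 7.45. The differences of these chains were nearly equal, both -0.61, or 1.53-fold lower with ZAG. C1qc, the C chain gene (probe 17431612), was at 5.95 and 5.68, a smaller difference of -0.27 (1.20-fold). Among the 11090 genes C1qb had the 503rd and C1qa the 509th lowest difference, while C1qc had the 2043rd, so C1qc stood nearer the middle of all genes. The 3 genes lie next to one another on chromosome 4 of GRCm38.p6, in the order C1qb, C1qc, C1qa, and their products assemble into 1 protein.

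C1ra encodes the protease C1r, which C1q activates first. Its level (probe 17462872) was 4.53 on the control array and 3.95 on the ZAG array, a difference of -0.58 (1.49-fold lower). Its close relative C1rb went the other way, with 4.47 and 4.80 (0.33 higher). Probes of such near copies can read each other's transcripts, so the values of C1ra and C1rb are uncertain. The median over the 4 classical members was -0.59.

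Cfb encodes factor B, which supplies the protease of the alternative pathway C3 convertase. It was at 6.10 on the control array and 5.52 on the ZAG array (probe 17344064), a difference of -0.58. That is the 573rd lowest of the 11090 differences, between C1ra (586th) and the C1qa and C1qb chains. The alternative pathway member thus did not stand apart from the classical ones.

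C3ar1, the receptor gene for C3a, showed the largest difference of the 8 members. It was at 4.65 on the control array and 3.92 on the ZAG array (probe 17470616), or 1.66-fold lower, the 312th lowest difference. C5ar1, the receptor gene for C5a that neutrophils and macrophages carry, was at 4.13 and 3.66 (probe 17486864), or 1.39-fold lower. C5ar1 was the dimmest member, and its ZAG value lay closest to the background gauge of 3.16, a level below which lay the mean values of 95% of 1394 odorant and pheromone receptor genes that skin is not known to use. The receptor median was -0.60, beside -0.59 for the classical members and -0.58 for Cfb.

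Serping1, the C1 inhibitor gene, was at 9.39 on the control array and 8.86 on the ZAG array (probe 17387517), a difference of -0.53 (1.44-fold lower). Over the 28 pairs of members, 2 had differences further apart than 0.345, the SD expected of a gap between 2 probes: C1qc against C3ar1 (0.46) and C1qc against C1qb, which lay at that limit. No pair was further apart than 2 times this SD, so no order among the members, C1qc included, can be read from these arrays.

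**Figure D2:**
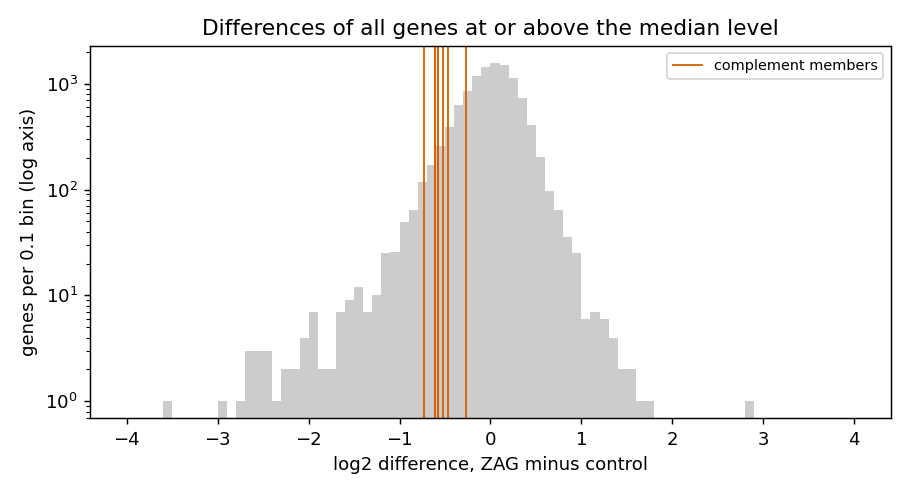
Histogram of log2 differences, ZAG minus control (x axis), of the 11090 genes at or above the median level; the y axis counts genes per bin on a log scale, and vertical lines are the 8 complement members. The members lie between -0.73 and -0.27, left of the peak near 0.02 and inside the 2-fold limits of -1 and 1.

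The rest of the complement system was read from a list of 47 genes, of which 44 were measured. Of these, 23 were above the background gauge on at least 1 array, 14 of them lower and 9 higher with ZAG. Of all 14062 genes above it, 6683 were lower and 7365 higher. The median over all 44 was -0.06, and -0.26 over the 23. Genes at least 2-fold lower numbered 2, Masp1 and Cd93, both among the 16 genes at or above the median level. Read against 1.15% of all genes this is a description of the list, and 0 were at least 2-fold higher.

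Among the other classical genes, the component gene C4b was at 7.33 on the control array and 6.58 on the ZAG array (-0.75), and C2, which lies next to Cfb on chromosome 17, was at 4.59 and 4.18 (-0.41). C4b and its near copy C4a may share signal, and C4a was below the gauge on both arrays. C1rl, a C1r-like protease gene, was 0.25 higher. The C1s genes C1s1 and C1s2 did not reach the gauge on either array, and the partner protease of C1r is given no direction.

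The lectin pathway starts from sugar-binding proteins that activate the MASP proteases. Masp1 was at 6.67 on the control array and 5.14 on the ZAG array, a difference of -1.53 (2.88-fold lower), which exceeds that of every member. The ficolin gene Fcna (-0.41) and the collectin genes Colec12 (-0.26) and Colec11 (-0.21) were lower by less. All 4 lectin pathway genes above the gauge were thus lower, beside 6683 of all 14062 genes above it. Colec11 lay within the SD of 0.244 between probes, and Colec12 was just beyond it. In the alternative pathway Cfp, the gene of the convertase stabiliser properdin, differed by -0.25.

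Of the terminal pathway, which forms the membrane attack complex, C6 was at 4.03 on the control array and 3.70 on the ZAG array. C7 was at 4.10 and 3.16, the latter just below the gauge, so it was at least 1.91-fold lower. The other terminal genes, Hc, C8a, C8b, C8g and C9, were below the gauge on both arrays. Hc encodes C5, the precursor of the C5ar1 ligand.

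Of the 5 other receptor genes above the gauge, 4 were lower, beside 6683 of all 14062 genes above it. Itgam and Itgb2, the subunit genes of complement receptor 3, stood at 5.84 and 5.74 on the control array and at 4.84 and 5.06 on the ZAG array. C5ar2, the second C5a receptor gene and neighbour of C5ar1 on chromosome 7, was at 3.90 and 3.18 (-0.72). Cd93, first described as a C1q receptor gene and expressed in endothelium and myeloid cells, was 2.21-fold lower. Itgax, the integrin gene of complement receptor 4, was 0.21 higher, and Cr2 and Vsig4 were below the gauge on both arrays.

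Of 14 measured regulator genes other than Serping1, 8 were higher and 6 lower, with a median of 0.005. Of the 7 above the gauge, 6 were higher, beside 7365 of all 14062 genes above it. These were Cd55 (0.36), which encodes the convertase decay factor, Clu (0.35), the clusterin gene, and Cd59a (0.12), the gene of the membrane attack inhibitor. Susd4 (0.11), Cd55b (0.07) and Cr1l (0.01) were the others. The value of Cr1l turned to -0.02 with median centring and -0.01 with loess. Vtn, the vitronectin gene, was the exception at -0.52, close to Serping1. Within the SD of 0.244 between probes lay Cd59a, Susd4, Cd55b and Cr1l. The other listed genes below the gauge on both arrays were Mbl1, Mbl2, Fcnb, Colec10, Cfi, C4bp, Cd46, Cd59b, Csmd1, Cpn1 and Cpn2. Masp2 and Cfd were not analysed here.

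**Figure D3:**
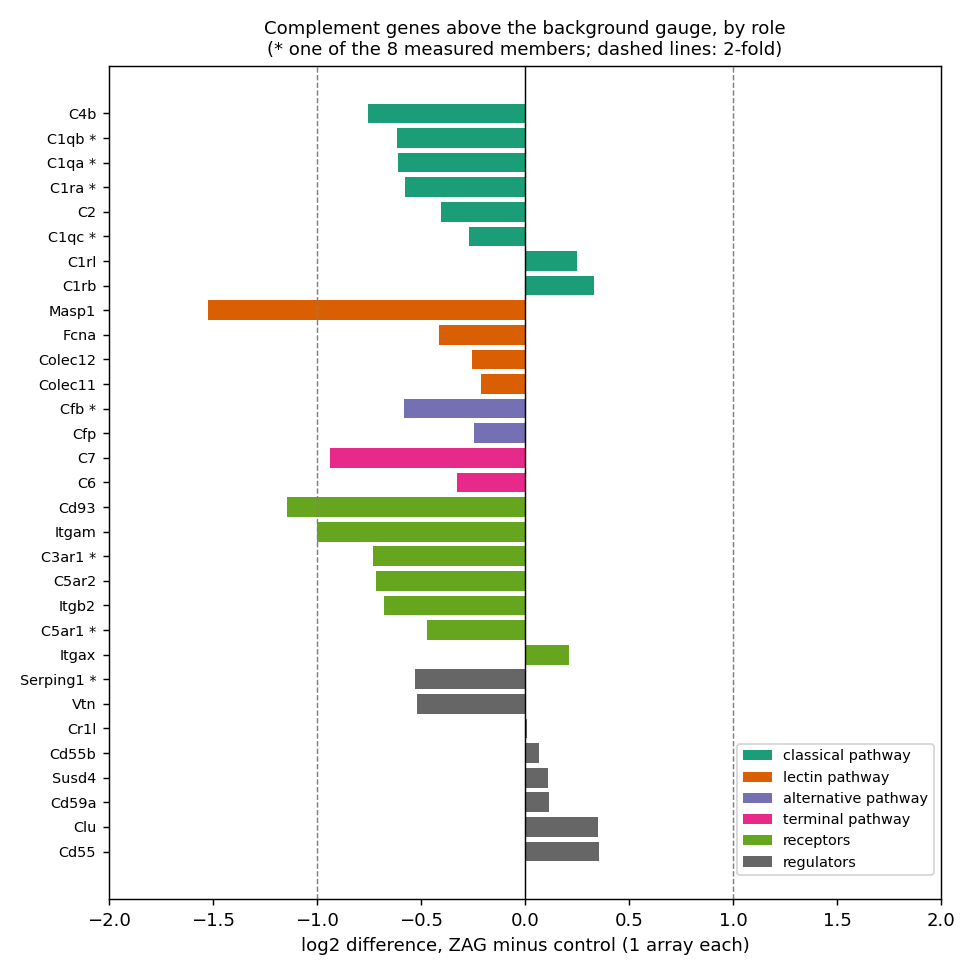
Log2 differences, ZAG minus control (x axis), of the 31 complement genes above the background gauge on at least 1 array, coloured by role; asterisks mark the 8 members and dashed lines a 2-fold difference. Component and receptor genes mostly lie left of 0, down to Masp1 at -1.53, and 6 regulator genes lie right of it.

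Markers of the cells that make or carry complement proteins also differed between the arrays. The skin label was borne out by keratin genes, with Krt10 at 12.2 and Krt14 at 11.3 on the control array, and hepatocyte genes, a check for plasma protein transcripts from liver, were near the gauge (Alb 3.38 and 3.32). Of 17 measured macrophage and monocyte markers, 12 were lower and 5 higher, with a median of -0.39. Cd14 (-1.94) and Lyve1 (-1.04) differed most. The 5 higher were Ccr2 (0.34), Aif1 (0.26), Marco (0.26, below the gauge on the control array), Adgre1 (0.09) and Folr2 (0.06). The summed linear level of the 17 markers was 2265 on the control array and 1715 on the ZAG array. That of the 3 C1q genes was 465 and 315. Lyz2, the brightest of the 17 markers (9.65 on the control array and 9.50 on the ZAG array), weighs most in their sum. It differed by only -0.15, so the 2 sums are not a like comparison.

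Of 12 neutrophil markers, 8 were above the gauge on at least 1 array, 7 of them lower and 1 higher (median -1.29, and -0.60 over all 12), led by Mmp9 (-2.13) and S100a9 (-1.49). The markers Ly6g, Ngp, Camp and Elane were below the gauge on both arrays. The summed level of the 12 markers was 1408 and 544. Most of this sum came from S100a8 (9.23 on the control array and 7.84 on the ZAG array) and S100a9 (8.88 and 7.39). All 8 mast cell markers were lower (median -0.64), with Hdc at least 4.90-fold lower and Tpsb2 at -0.95, and a summed level of 1382 and 870. These 3 myeloid marker lists had negative medians, but so did every other marker list except that of adipocytes.

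Of 9 fibroblast markers, 7 were lower (median -0.46, summed level 8800 and 7116), led by Pdgfrb (-0.84) and Pdgfra (-0.79), with Dcn at 0.04 as deposited but -0.08 with quantile normalization and -0.05 with loess. Of 8 endothelial markers, 7 were lower (median -0.35, summed level 496 and 345), with Cdh5 at -0.91 and Pecam1 at -0.62. Of 8 measured keratinocyte markers, 6 were lower (median -0.17, summed level 14218 and 12620), led by Krt14 (-0.73) and Dsg3 (-0.68). The other 4 of these, Krt1, Trp63, Lor and Flg, were lower by less than the SD of 0.244 between probes. Dsg1a was 0.35 higher, and Krt10 was at 0.01 as deposited but -0.12 with quantile normalization. The 6 adipocyte markers were all higher (median 0.43, summed level 2214 and 3177), with Fabp4 and Plin1 both at 0.57. The 7 T cell markers had a median of -0.10 (4 lower, 2 higher and 1 equal, summed level 128 and 134), with Cd4 at -1.06 and Cd3g at 0.72, and the 6 hepatocyte genes a median of -0.07, or 0.07 over the 4 above the gauge (summed level 49.2 and 45.2). Of 12 immediate early genes, listed as a possible sign of tissue handling, 9 were lower (median -0.49, summed level 1174 and 827). Nr4a1 (-1.70) and Fos (-1.51) differed most, whereas Egr2 (0.27), Atf3 (0.25) and Jun (0.22) were higher. The part of cell makeup or tissue handling in the complement differences was not tested.

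**Figure D4:**
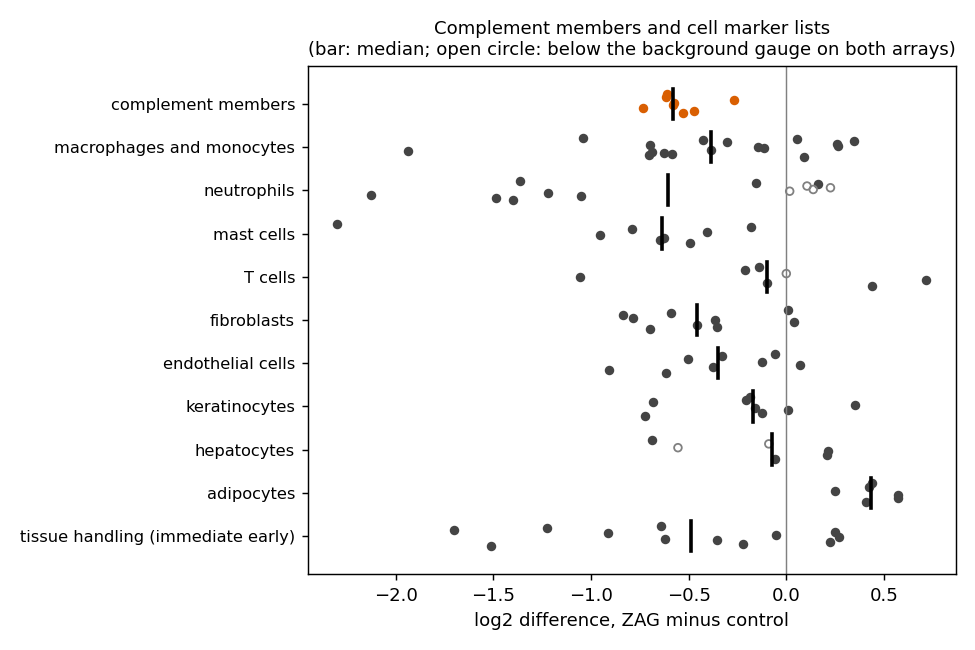
Log2 differences, ZAG minus control (x axis), of the 8 complement members and of each gene of 10 marker lists; bars are medians and open circles are genes below the background gauge on both arrays. The complement members span -0.73 to -0.27, a narrower range than the macrophage list, which runs from -1.94 to 0.34.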

How the data were processed

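Gene expression in 2 skin samples was read on Affymetrix arrays. The values are the log2 expression values the authors deposited, and the log2 scale was inferred from their range of 0.866 to 13.2. Per the labels' protocols, RNA was column-purified and biotin-labelled. The sources used here do not give the background correction, normalization or software. Column medians were 3.33 (control) and 3.36 (ZAG).

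Of 33793 probes, 23521 had 1 gene symbol, 1814 several and 8458 none. Probes with 1 symbol were averaged per gene (22180 genes), and the log2 difference was ZAG minus control. Counts used the 11090 genes with a mean level at or above the median of 3.87. For a gene under the background gauge on 1 array the gauge replaced that value and the fold is written "at least"; genes under it on both have no fold. Summed levels are sums of 2 to the power of the log2 values.

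The members and lists were chosen with earlier results of these data known. Text names all members, every other measured complement gene and up to 2 markers per list, by size of difference. Alb, S100a8, Lyz2, Dcn and the keratinocyte markers other than Krt14 and Dsg3 were added after their values were seen. So were the macrophage and immediate early genes that were higher, and the neutrophil markers below the gauge on both arrays. Alternatives were median centring, quantile normalization, loess (span 0.3), the brightest probe, other level filters, a 1.5-fold threshold, means, and members above the gauge. Loess came from statsmodels 0.14.6, figures from matplotlib 3.10.9 and all else from pandas 2.3.3 and numpy 2.4.6 under Python 3.11.15.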

Additional observations from a re-analysis of the deposited data

How the results depend on the processing

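Median centring, quantile normalization and loess left all 8 members lower and moved none of their differences by more than the SD between probes. Median centring shifts every gene by the same amount. Taking the brightest probe per gene could not change a member, because each has 1 probe. Across these settings C3ar1 ranged from -0.76 to -0.73 and C1qc from -0.30 to -0.25. Medians by role also moved by less than that SD. With a 1.5-fold threshold 3 members, 563 of all genes lower and 275 higher passed; without a level filter 46 genes were at least 2-fold higher, and above the 75th percentile of gene levels 62 were at least 2-fold lower. These settings count more or fewer genes by their own construction. No paired analysis was possible because each group has 1 array. For the same reason no array could be left out. The number of arrays limits the precision, and dim genes such as C5ar1 lie near background.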

Other observations

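Genes of antibody and kinin biology that border on complement were read from lists added after the member values were seen. Fc receptors bind antibody, as C1q does. Of 6 genes of their chains, 5 were above the gauge on at least 1 array and all 5 were lower with ZAG. Of all 14062 genes above the gauge, 6683 were lower. The inhibitory receptor gene Fcgr2b was at 7.81 on the control array and 6.73 on the ZAG array (2.11-fold lower). Fcer1g, the shared signalling chain gene, was at 7.98 and 7.20, and Fcgrt, the neonatal Fc receptor gene, at 7.96 and 7.27. Fcgr1 (-0.39) and Fcgr3 (-0.14) differed by less, and Fcgr4 was below the gauge on both arrays.

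C1 inhibitor also controls the contact system that releases bradykinin. Of 6 measured genes of that system, F12, Kng1 and Kng2 were below the gauge on both arrays. The bradykinin receptor genes Bdkrb1 (-0.43) and Bdkrb2 (-0.05) were lower, and F11 was at least 1.21-fold higher. The 9 measured genes of the C1q/TNF-related list, named for a globular domain they share with C1q or, for C1qbp, for binding it, had a median of 0.07, with 4 lower and 5 higher, from -0.41 in C1qtnf9 to 0.40 in C1qtnf4. With 1 array per group these values carry no replicate error.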
